A study of Bos taurus with 12 samples.

Results

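Glucose uptake and lactose precursor supply were examined in the mammary gland (MG) through 10 genes, namely the glucose transporters SLC2A1, SLC2A3, SLC2A4 and SLC2A8, the hexokinases HK1 and HK2, the UDP-glucose supply enzymes UGP2 and PGM1, the galactosyltransferase B4GALT1 and the Golgi UDP-galactose transporter SLC35A2. Array probes were assigned to a gene when the RefSeq accession given with the probe, without its version, belonged to that gene in the bovine RefSeq table. A total of 27 of the 43653 probes, for 9 of the 10 genes, were found in this way. HK2 was not matched and was not analysed here. The arrays came from multiparous Holstein cows whose study diets began at 24 ± 3 d in milk. All of them received 50 µg of lipopolysaccharide (LPS), a bacterial endotoxin, in the udder, 3 d after the diets began. The control group (CONT, n = 6) had free access to a lactation diet. The restricted group (REST, n = 6) was fed a ration in which barley straw made up 48% of the dry matter, for 4 d. Biopsies were collected 24 h after LPS in both groups, a time that the study places in the resolution of inflammation. No cow without LPS was included. Each array carried the RNA of 1 cow, and the cows are numbered 1 to 6 within a group only to name them.

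Lactose is the main osmotic component of milk, and its synthesis depends on glucose taken up from blood by the secretory cells. Glucose enters through facilitative transporters of the SLC2A family (GLUT proteins), is phosphorylated by hexokinases, and is converted by phosphoglucomutase and UDP-glucose pyrophosphorylase into UDP-glucose, from which UDP-galactose is formed. In the Golgi, UDP-galactose is joined to glucose by lactose synthase, a complex of the galactosyltransferase B4GALT1 with α-lactalbumin (LALBA), a milk protein that changes the acceptor of the enzyme to glucose.

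The levels given here are log2 intensities minus the 75th percentile of the same array, so that 0 is the level of that percentile, and they do not allow one probe to be compared with another. Before this scaling the 75th percentile ranged from 577 to 1184 in CONT and from 387 to 1082 in REST. The share of probes called well above background by the scanner software was 57.6 to 78.1% over the 12 arrays. The arrays lay on 3 slides, with 3 CONT and 1 REST cows on slide 1, 1 CONT and 3 REST on slide 2, and 2 and 2 on slide 3. Of 12 markers of mammary secretory epithelium, 10 were matched and all 10 were well above background on the 12 arrays. So were 24085 of the 43653 probes and all matched markers of neutrophils, macrophages, endothelium and fibroblasts. This count therefore cannot check the tissue label. In a biopsy, fewer cells of a type and less RNA per cell cannot be told apart.

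None of the 27 probes of the 9 genes passed the test between REST and CONT, and the largest difference of a brightest probe was that of SLC2A1, with a mean lower in REST. With limma (moderated test, Westfall-Young adjustment over all probes), 0 of 27 were past the threshold of 0.05, as were 0% of the 43653 probes, and the adjusted p-value was 1 for each of the 27. Their Benjamini-Hochberg adjusted p-values were 0.9999 and the unadjusted p-values ranged from 0.223 to 0.905. At an unadjusted p-value under 0.05, 0 of the 27 probes were found against 2.62% of all probes. In 0 of the 27 did the groups not overlap, against 0.128% of all probes. Over all probes the lowest adjusted p-value was 0.2 (limma, Westfall-Young). The study itself reported differentially expressed genes between the diets, by a moderated test with this type of adjustment. The reason for the difference was not tested. For 24 probes a difference is given, whereas SLC2A3 probes 5 and 6 and SLC2A4 probe 4 were not well above background in CONT on any array and have none. Of the 24, 10 had a higher and 14 a lower mean in REST. With the brightest probe taken for a gene, the mean was higher in REST for SLC2A8, UGP2 and B4GALT1 and lower for the other 6. The median of the 9 log2 differences was -0.16, beside -0.02 over all probes.

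**Figure D1:**
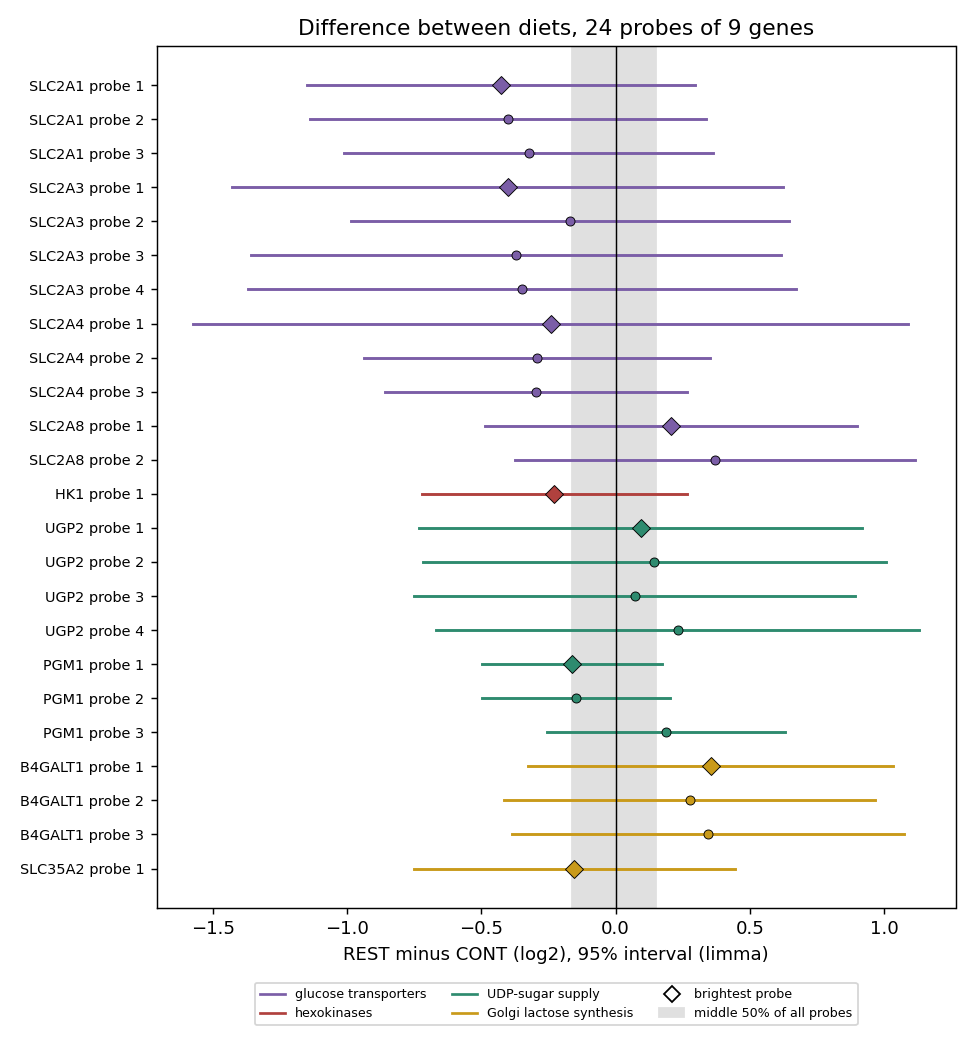
Difference between REST and CONT (log2, n = 6 cows per group) for the 24 probes, with the 95% interval from limma; diamonds are the brightest probe of each gene, colors give the role, and the gray band holds the middle 50% of all probes. Every interval includes 0, from the narrow ones of PGM1 to that of SLC2A4 probe 1, which runs from -1.57 to 1.09.

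SLC2A1 (NM_174602) encodes GLUT1, the transporter regarded as the main route of glucose into mammary secretory cells. Its brightest probe ranged in CONT from 1.18 to 2.59, with a median of 2.02. In REST it ranged from 0.55 to 2.58, with a median of 1.33. The groups overlapped over most of this range, and 2 REST cows (3 and 6) lay below all CONT cows. REST minus CONT was -0.43 ± 0.33 (SE, log2), or 0.744-fold with a 95% interval of 0.451 to 1.23, and the exact permutation test gave p = 0.249 (two-sided, smallest possible p 0.00216). The other probes of the gene gave -0.40 and -0.32. Within slides, the difference was -0.60 on slide 1, 0.02 on slide 2 and -1.06 on slide 3. With slide as a block it was -0.60, and leaving out single cows it ran from -0.65 (REST cow 5) to -0.24 (REST cow 3).

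SLC2A3 (NM_174603) encodes GLUT3, a high-affinity transporter of neurons and leukocytes. Its levels ranged from 0.23 to 2.84 in CONT (median 1.05) and from -0.17 to 1.76 in REST (median 1.05). The highest level, in CONT cow 1, was 8.07-fold the lowest, in REST cow 2. The mean difference was -0.40 ± 0.47 (SE, log2), or 0.757-fold with a 95% interval of 0.372 to 1.54 (exact permutation p = 0.455). Slides disagreed in direction for this gene. REST minus CONT was -0.11 on slide 1, -2.56 on slide 2, where CONT cow 1 was the only control, and 1.104 on slide 3. It was -0.36 with slide as a block. Without CONT cow 1 the difference moved from -0.40 to -0.09. Probes 2, 3 and 4 had differences of -0.17, -0.37 and -0.35, and probe 4 was well above background on only 4 arrays of each group.

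SLC2A4 (NM_174604) encodes GLUT4, the insulin-responsive transporter of muscle and adipose tissue. Its brightest probe ranged from -2.58 to 1.48 in CONT (median 0.32) and from -1.47 to 0.83 in REST (median -0.05). This was the widest range among the 9 brightest probes, 16.6-fold between CONT cow 6 and CONT cow 4, and the REST cows all lay inside the range of CONT. REST minus CONT was -0.24 ± 0.61 (SE, log2), or 0.846-fold with a 95% interval of 0.336 to 2.13 (exact permutation p = 0.740). Without CONT cow 6 it was -0.79, and it turned to 0.02 without CONT cow 4 and to 0.04 without REST cow 3. The differences were -0.60, 0.27 and -0.21 on slides 1, 2 and 3, and -0.18 once slide was blocked. The SLC2A4 probes did not vary together. Over the 12 cows the brightest probe had a Pearson correlation of 0.35 with probe 2 and 0.32 with probe 3, with adjusted permutation p-values of 0.311 and 0.344, while probes 2 and 3 had a correlation of 0.94 with each other. Statements on SLC2A4 below therefore hold for its brightest probe.

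SLC2A8 (NM_201528) encodes GLUT8, a transporter found mostly on intracellular membranes. CONT cows ranged from 2.97 to 4.50 (median 4.16) and REST cows from 3.39 to 4.57 (median 4.06). CONT cows 5 and 6 and REST cow 3 were the lowest of the 12, and REST cow 4 was above all CONT cows. The mean was higher in REST by 0.21 ± 0.32 (SE, log2), or 1.15-fold with a 95% interval of 0.714 to 1.86 (exact permutation p = 0.548). Probe 2 gave a difference of 0.37. For the brightest probe it was 0.15, -0.27 and 0.23 on slides 1, 2 and 3, and 0.05 with slide as a block. Without CONT cow 5, or without CONT cow 6, the difference moved from 0.21 to 0.03.

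HK1 (NM_001012668) encodes hexokinase 1, which traps glucose in the cell as glucose 6-phosphate. Its single probe ranged from 2.53 to 3.14 in CONT (median 2.94) and from 1.93 to 3.20 in REST (median 2.76). The REST cows fell on both sides of the controls, as REST cows 2, 4 and 5, all on slide 2, were below every CONT cow and REST cow 3 was above. The mean difference was -0.23 ± 0.23 (SE, log2), or 0.854-fold with a 95% interval of 0.607 to 1.20 (exact permutation p = 0.349). On slides 1, 2 and 3 the difference was 0.05, -0.64 and 0.32, and it was -0.05 with slide as a block. Without REST cow 2 it was -0.08.

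UGP2 (NM_174212) encodes UDP-glucose pyrophosphorylase, which makes UDP-glucose from glucose 1-phosphate. It ranged from 4.22 to 6.01 in CONT (median 5.51) and from 4.33 to 6.23 in REST (median 5.58). CONT cows 5 and 6 and REST cow 3 had again the lowest levels, and REST cow 6 the highest. The difference was 0.09 ± 0.38 (SE, log2), or 1.07-fold with a 95% interval of 0.603 to 1.89 (exact permutation p = 0.812). Its sign was not stable. It was -0.38, 0.04 and 0.17 on slides 1, 2 and 3, -0.03 with slide as a block, and between -0.12 and 0.31 when each cow was left out in turn. The 4 probes of the gene ran closely together, with correlations of 0.96 to 1.00 over the cows.

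PGM1 (NM_001076903) encodes phosphoglucomutase 1, which interconverts glucose 6-phosphate and glucose 1-phosphate. Its brightest probe was the steadiest of the 9, with a within-group SD of 0.21. It ranged from 2.06 to 2.46 in CONT (median 2.24) and from 1.63 to 2.40 in REST (median 2.15). REST cows 2 and 3 were below all CONT cows, and 1 of the 6 REST cows was above the CONT mean. The difference was -0.16 ± 0.15 (SE, log2), or 0.894-fold with a 95% interval of 0.709 to 1.13 (exact permutation p = 0.232). On slides 1, 2 and 3 it was -0.07, -0.19 and -0.12, and it was -0.07 without REST cow 3. Probe 2 gave -0.15. Probe 3 gave 0.19 and disagreed with both others over the cows (r = -0.23 and -0.26), and its signal exceeded background clearly on 2 arrays of CONT and 4 of REST.

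B4GALT1 (NM_177512) encodes the catalytic subunit of lactose synthase. Levels ranged from 5.28 to 6.87 in CONT (median 6.23) and from 5.91 to 7.24 in REST (median 6.45). REST cows 2 and 5 were above all CONT cows, CONT cows 5 and 6 were the lowest of the 12, and the other cows overlapped. The mean was higher in REST by 0.35 ± 0.31 (SE, log2), or 1.28-fold with a 95% interval of 0.798 to 2.05 (exact permutation p = 0.303). The other probes gave 0.28 and 0.34. On slides 1, 2 and 3 the difference of the brightest probe was -0.02, 0.37 and 0.10, and it was 0.15 with slide as a block. Without CONT cow 6 it was 0.18.

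SLC35A2 (NM_176640) encodes the transporter that carries UDP-galactose into the Golgi. Its single probe was dim but well above background on all 12 arrays. CONT cows ranged from -3.60 to -1.97 (median -2.48) and REST cows from -3.30 to -2.11 (median -2.83). All REST cows lay inside the range of CONT, whose cows 6 and 4 were the lowest and the highest of the 12. The difference was -0.15 ± 0.28 (SE, log2), or 0.899-fold with a 95% interval of 0.595 to 1.36 (exact permutation p = 0.602). Slides disagreed in direction, with -0.34, 0.33 and -0.11 on slides 1, 2 and 3, and the difference was -0.05 with slide as a block. Single cows left out moved it from -0.35 (CONT cow 6) to -0.02 (CONT cow 4).

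**Figure D2:**
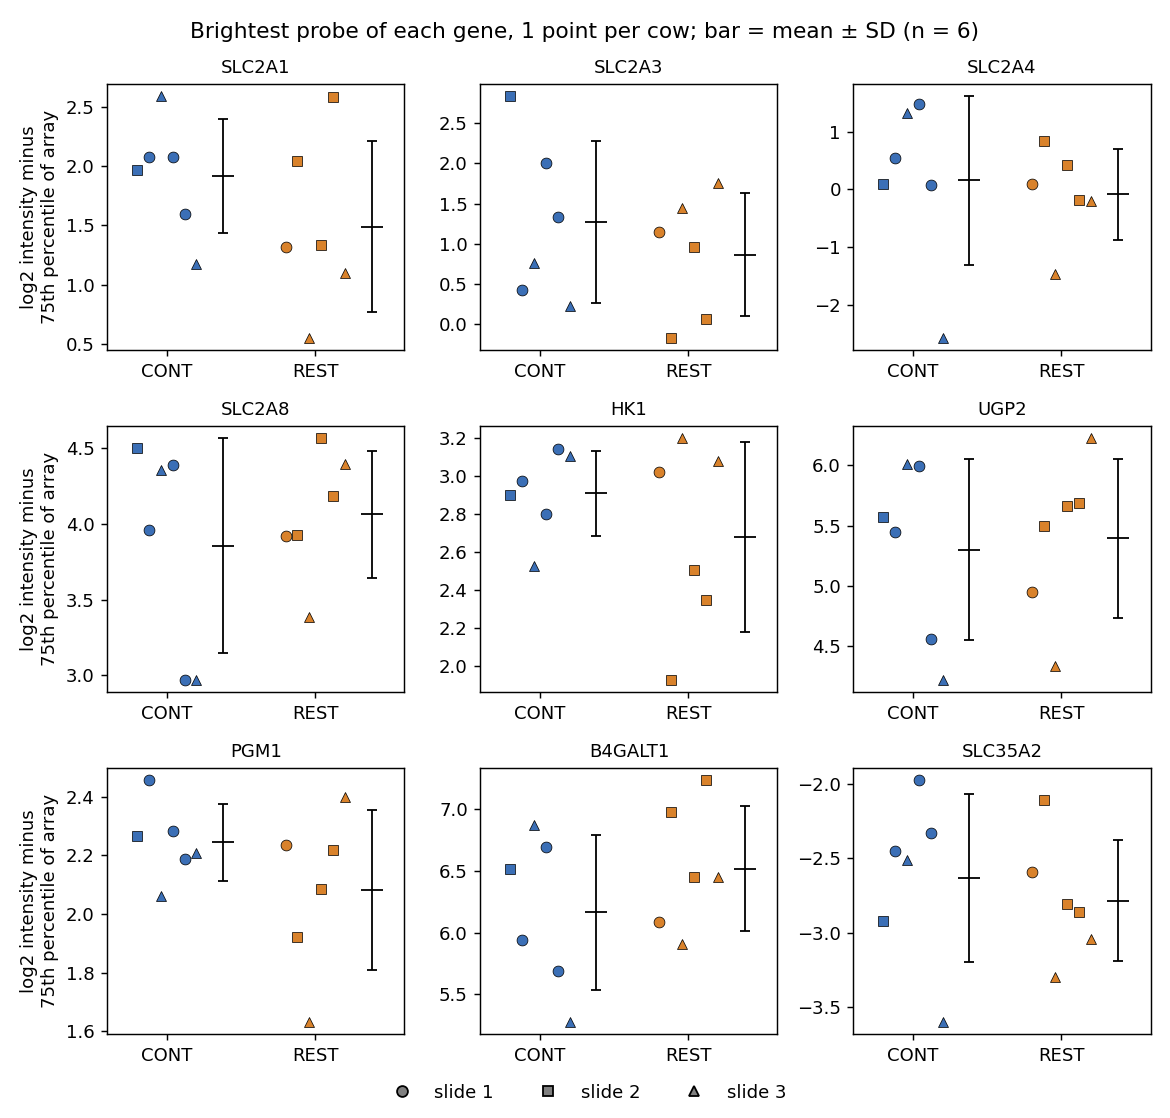
Level of the brightest probe of each gene in each cow (log2 intensity minus the 75th percentile of the array), for CONT (blue) and REST (orange), with the slide as the symbol and the mean ± SD (n = 6) beside the points. The groups overlap for all 9 genes, and CONT cow 6, a triangle drawn last in CONT, is the lowest CONT cow for SLC2A1, SLC2A3, SLC2A4, UGP2, B4GALT1 and SLC35A2.

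LALBA (NM_174378), the partner of B4GALT1 in lactose synthase, was read with the other genes of these pathways. It ranged from 6.94 to 9.94 in CONT (median 9.22) and from 7.34 to 10.32 in REST (median 9.50). The low end was made of CONT cow 6 and REST cow 3. REST minus CONT was 0.19 ± 0.58 (SE, log2), with a 95% interval of -1.06 to 1.44 and an adjusted p-value of 1 (limma, Westfall-Young). It was -0.15 with slide as a block and -0.21 without CONT cow 6.

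The other genes of glucose handling formed 8 lists with 88 genes, of which 81 were matched. By the brightest probe of each gene, 0 of 81 were past the Westfall-Young or the Benjamini-Hochberg threshold of limma. At an unadjusted p-value under 0.05, 1 gene was lower and 0 were higher in REST, against 2.64% of the 12639 named genes in either direction and 1.01% in the lower direction. The gene was PGM3 (NM_001045922), a phosphoglucomutase that acts on N-acetylglucosamine phosphate on the way to UDP-N-acetylglucosamine and not in lactose synthesis. PGM3 ranged from -0.50 to 0.36 in CONT (median -0.15) and from -0.95 to -0.29 in REST (median -0.76). The groups overlapped, and REST minus CONT was -0.51 ± 0.19 (SE, log2), with an unadjusted p-value of 0.0179 and an adjusted p-value of 1 (limma, Westfall-Young). The number of such genes was 0 to 2 under the other settings.

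The medians of the 8 lists ran from -0.15 to 0.12, beside -0.02 over all probes. Among 12 other glucose transporters, 4 exceeded background on every array, and the list had a median difference of -0.08. Those named were SLC5A9, a sodium-coupled transporter (0.31 ± 0.29, SE), and SLC2A6 (-0.27 ± 0.44). Without CONT cow 6 the difference of SLC5A9 was 0.0725. The 10 regulators of glucose uptake had a median of 0.12, with TXNIP, an inhibitor of glucose uptake that is induced by glucose, at 0.27 ± 0.32 and ASPSCR1, which tethers GLUT4 vesicles, at 0.15 ± 0.17. The difference of TXNIP was 0.0786 without REST cow 6. For 7 other enzymes of glucose phosphorylation and glucose 6-phosphate the median was 0.01, with G6PC3 at 0.07 ± 0.16 and ADPGK at -0.05 ± 0.17. The Leloir pathway, which interconverts galactose and glucose, and the nucleotide sugar enzymes were 12 genes with a median of -0.12, of which 3 had a higher mean in REST. The other gene named there was UGDH, which oxidizes UDP-glucose, at -0.41 ± 0.61.

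Among 11 genes of lactose synthase and the Golgi the median was -0.15. B4GALT7 and B4GALT4, galactosyltransferases of proteoglycan and glycan synthesis, were at -0.45 ± 0.22 and -0.29 ± 0.33. The unadjusted p-value of B4GALT7 was 0.0591. The 8 glycogen genes had a median of 0.06, with GYG1, the primer of glycogen synthesis, at 0.20 ± 0.23 and PYGL, a glycogen phosphorylase, at -0.16 ± 0.43. The 7 genes of the pentose phosphate pathway had a median of -0.06, with RPE, an epimerase, at -0.15 ± 0.15 and PGLS, a lactonase, at -0.14 ± 0.16. The 14 genes of glycolysis had a median of -0.02, with LDHA, a lactate dehydrogenase subunit, at -0.26 ± 0.39 and ENO1, an enolase, at -0.24 ± 0.24. With slide as a block the difference was -0.01 for UGDH, -0.08 for SLC2A6, -0.09 for B4GALT4, -0.02 for PYGL, -0.06 for PGLS, -0.03 for LDHA and -0.04 for ENO1, while that of G6PC3 was 0.13 and that of GYG1 0.32. All these differences are REST minus CONT in log2 with their SE, and none of the genes named here besides PGM3 had an unadjusted p-value under 0.05.

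**Figure D3:**
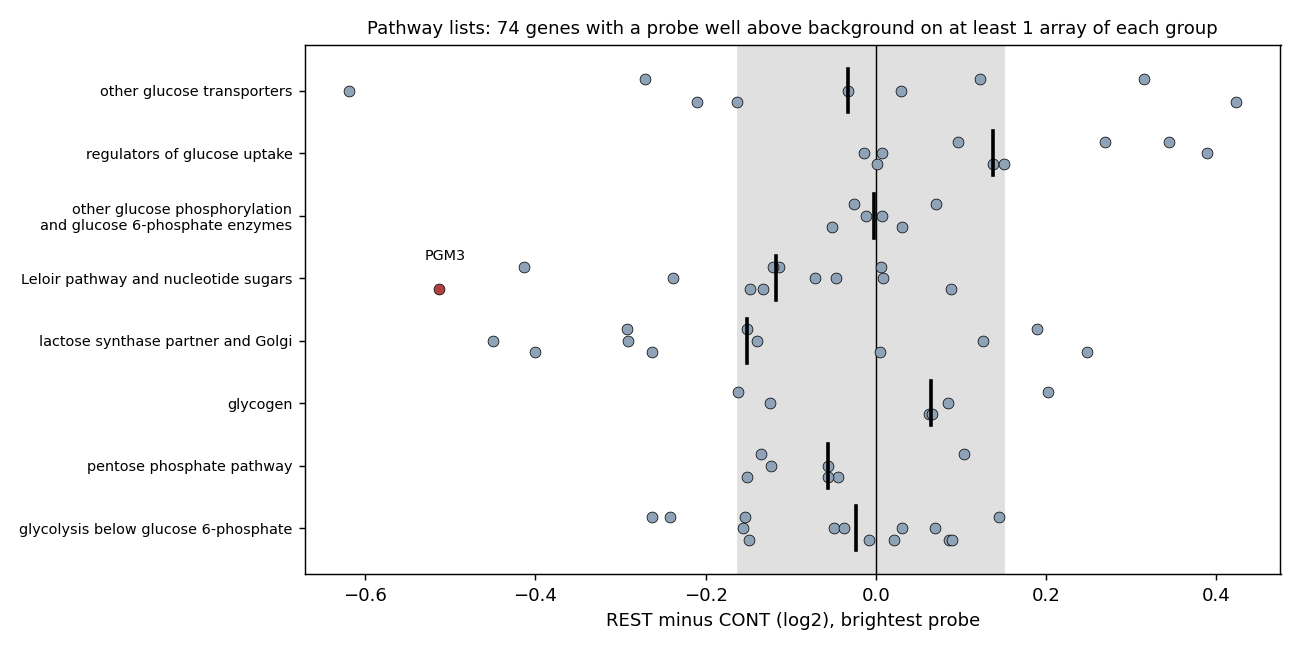
REST minus CONT (log2, brightest probe) for the 74 pathway genes with a probe well above background on at least 1 array of each group, by list; the black bar is the median of the genes drawn and the gray band holds the middle 50% of all probes. PGM3, in red, is the single gene with an unadjusted p-value under 0.05.

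For each of the 9 genes the within-group SD, pooled over both diets, exceeded the size of the difference between diets. This SD of the brightest probes was 0.21 (PGM1) to 1.18 (SLC2A4), and 8 of the 9 exceeded the median of 0.34 over the 24085 probes well above background on all arrays. Over the 12 cows, 6 of 36 pairs had a correlation past 0.05 after Benjamini-Hochberg adjustment over the 36 (two-sided permutation test), and 11 had an unadjusted p-value under 0.05. By Spearman's rho 3 pairs were past the adjusted threshold. The weakest of the 6 pairs had an r of size 0.74. Among all pairs of the 9000 named genes whose brightest probe exceeded background on every array, 5.7% had an r of at least this size in either direction, beside 16.7% of the member pairs. No test was made of this difference.

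SLC2A8 and UGP2 had the closest relation, with r = 0.90 (permutation p = 0.00017, adjusted 0.00306) and rho = 0.80 (p = 0.00283, adjusted 0.034). It was 0.95 within CONT, 0.88 within REST and 0.91 after removal of the group and slide means, and without the 2 cows farthest from the median of SLC2A8 it was 0.85. SLC2A4 and SLC35A2 had r = 0.89 (permutation p = 0.00009, adjusted 0.00306) and rho = 0.85 (p = 0.00091, adjusted 0.0164). This value was 0.88 with group and slide means removed and 0.74 without the 2 farthest cows. HK1 and B4GALT1 ran in opposite directions, with r = -0.79 (permutation p = 0.00198, adjusted 0.0218) and rho = -0.90 (p = 0.00028, adjusted 0.0101), and r was -0.72 without the 2 farthest cows. With group and slide means removed it was -0.65, with an adjusted permutation p-value of 0.0652, and with normexp background correction -0.69 (adjusted permutation p = 0.0795).

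Of the other relations, UGP2 and B4GALT1 had r = 0.79 (permutation p = 0.00242, adjusted 0.0218), rho = 0.73 (p = 0.00992, adjusted 0.0709) and 0.65 without the 2 farthest cows. SLC2A8 and B4GALT1 had r = 0.76 (permutation p = 0.00434, adjusted 0.0262) and rho = 0.57 (p = 0.0552, adjusted 0.194). SLC2A4 and UGP2 had r = 0.74 (permutation p = 0.00437, adjusted 0.0262) and rho = 0.45 (p = 0.139, adjusted 0.333). The last of these rested on the 2 cows farthest from the median, CONT cow 6 and REST cow 3, without which r was 0.32, and r between SLC2A8 and B4GALT1 fell to 0.46 without its 2 farthest cows. Adjusted permutation p-values of UGP2 with B4GALT1 were 0.0559 without CONT cow 3 and 0.13 without CONT cow 6. SLC2A8 with B4GALT1 was no longer past the threshold without CONT cow 3, 4, 5 or 6 or REST cow 3 (adjusted permutation p = 0.0593 to 0.165), nor was SLC2A4 with UGP2 without CONT cow 3, 4 or 6 or REST cow 3 (0.0644 to 0.168). With the mean over the probes of a gene in place of the brightest, SLC2A4 with UGP2 had r = 0.43 (adjusted permutation p = 0.309). The number of pairs past the threshold was 3 without CONT cow 3 or CONT cow 6. It was 4 without CONT cow 4 or REST cow 3, and 3 with quantile normalization or normexp background correction. With group and slide means removed it was 11. The permutation behind this 11 ignored that the means had been fitted. The count can therefore be too high and is not comparable with the 6 pairs given above. The pairs lost with quantile normalization were UGP2 with B4GALT1, SLC2A8 with B4GALT1 and SLC2A4 with UGP2, and SLC2A8 with B4GALT1 and SLC2A4 with UGP2 were lost with normexp too. Slides held 4 arrays each, too few for a correlation within a slide.

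LALBA was set against the 9 genes after the values had been seen, and 7 of 9 correlations were past 0.05 after adjustment over the 9. The weakest of these 7 had an r of size 0.65, and 2948 of the 8999 named genes other than LALBA (32.8%) reached at least this size with LALBA. The 2 farthest cows left out below are those farthest from the median of the member gene. They differ between genes and are not chosen by LALBA. The strongest relation was with B4GALT1 (r = 0.84, permutation p = 0.00039, adjusted 0.00351), with rho = 0.92 (p = 0.00005, adjusted 0.00045) and r = 0.73 without the 2 farthest cows. UGP2 followed at r = 0.80 (permutation p = 0.0025, adjusted 0.0075), with rho = 0.74 (p = 0.0077, adjusted 0.0231) and 0.49 without the 2 farthest cows. SLC2A1, the main transporter, had r = 0.74 (permutation p = 0.00534, adjusted 0.0107), with rho = 0.68 (p = 0.0179, adjusted 0.0402) and 0.60 without the 2 farthest. HK1 ran against LALBA at r = -0.76 (permutation p = 0.00592, adjusted 0.0107), with rho = -0.91 (p = 0.00016, adjusted 0.00072) and -0.71 without the 2 farthest. After removal of group and slide means r was 0.82 for B4GALT1, 0.83 for UGP2, 0.74 for SLC2A1 and -0.65 for HK1. The permutation of these residuals ignored that the means had been fitted, which makes its p-values too small. It cannot decide whether these relations stayed past the threshold.

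For SLC2A4, r with LALBA was 0.81 (permutation p = 0.00233, adjusted 0.0075), rho was 0.58 (p = 0.051, adjusted 0.0918), and r fell to 0.30 without the 2 farthest cows, on which this relation rested. SLC2A8 had r = 0.67 (permutation p = 0.0171, adjusted 0.0256) with rho = 0.56 (p = 0.0639, adjusted 0.0958) and 0.64 without its 2 farthest cows. These did not include REST cow 3, which was low in LALBA. With group and slide means removed r of SLC2A8 was 0.59 and no longer past the threshold (adjusted permutation p = 0.0534). SLC35A2 had r = 0.65 (permutation p = 0.0223, adjusted 0.0287) with rho = 0.46 (p = 0.134, adjusted 0.172) and 0.50 without the 2 farthest. SLC2A3 and PGM1 did not follow LALBA detectably (r = -0.10 and 0.20, adjusted permutation p = 0.747 and 0.61). Without CONT cow 6, or without REST cow 3, the number past the threshold was 4 in place of 7. The relations lost without CONT cow 6 were those of SLC2A4, SLC2A8 and SLC35A2 (adjusted permutation p = 0.0517, 0.167 and 0.225), and without REST cow 3 those of SLC2A1, SLC2A8 and SLC35A2 (0.0542, 0.0556 and 0.0936). SLC35A2 was also lost without REST cow 2 (0.077) and with normexp background correction (0.0551), and SLC2A4 with the mean over the probes of a gene (0.098).

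**Figure D4:**
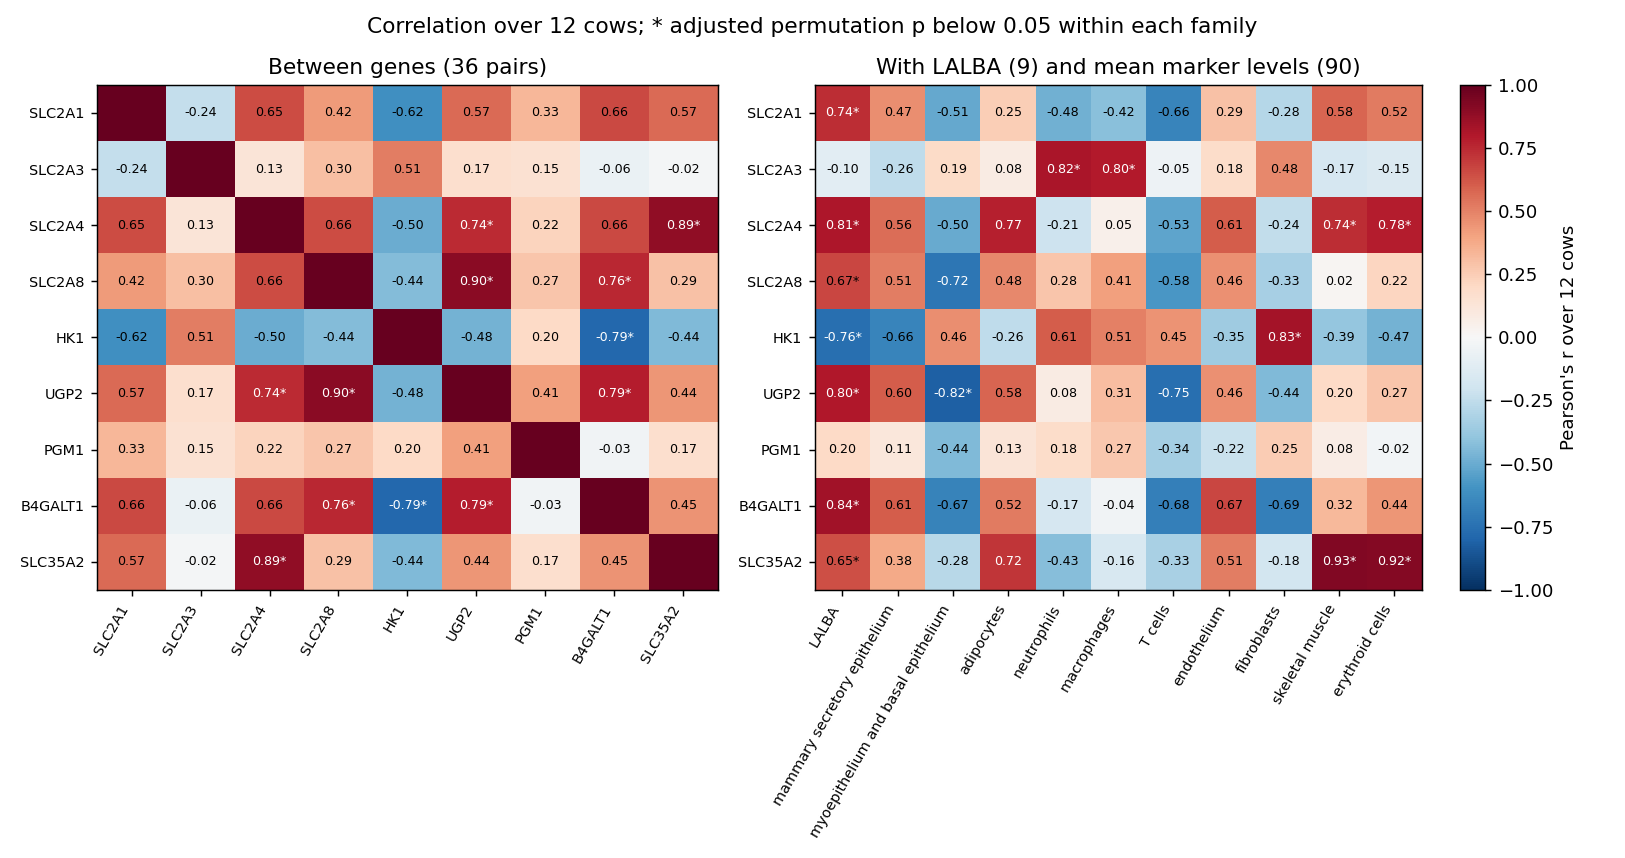
Pearson correlation over the 12 cows between the 9 genes (left) and of the 9 genes with LALBA and with the mean level of 10 marker lists (right); an asterisk is an adjusted permutation p-value under 0.05 within its family of 36, 9 or 90. SLC2A8, UGP2 and B4GALT1 are positively related to each other and to LALBA, HK1 is negatively related to B4GALT1 and LALBA, and SLC2A3 stands with the neutrophil and macrophage lists.

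Markers of the cell types that a biopsy may hold were averaged per cow in 10 lists and set against the 9 genes. Of these 90 correlations, computed after the values had been seen, 8 were past 0.05 after adjustment over the 90. At the size of r of the weakest of these, 0.74, stood 10 of the 90, while 4.9% of the correlations of all 9000 named genes with the same lists, each without its own markers, reached that size. No gene was past the threshold with the secretory epithelium list, which holds LALBA. There r was 0.61 for B4GALT1, 0.60 for UGP2, 0.47 for SLC2A1 and -0.66 for HK1 (adjusted permutation p = 0.163, 0.167, 0.286 and 0.0951). SLC2A3 followed the mean of 6 neutrophil markers (r = 0.82, permutation p = 0.00133, adjusted 0.0264), with rho = 0.85 (p = 0.00098, adjusted 0.0212), and that of 5 macrophage markers (r = 0.80, permutation p = 0.00205, adjusted 0.0264), with rho = 0.84 (p = 0.00118, adjusted 0.0212). Without the 2 cows farthest in SLC2A3 these were 0.69 and 0.80, and with group and slide means removed 0.89 and 0.90. The neutrophil relation was lost without REST cow 2 or 5 (adjusted permutation p = 0.0838 and 0.0504) and the macrophage relation without CONT cow 2, 4 or 6 or REST cow 2 or 5 (0.0581 to 0.0838). The markers of both lists all exceeded background on each of the 12 arrays. The neutrophil level ranged from 0.32 to 2.51 in CONT and from -0.63 to 2.49 in REST, and the macrophage level from 0.34 to 1.41 and from -0.13 to 2.13.

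HK1 followed the mean of 6 fibroblast markers (r = 0.83, permutation p = 0.00147, adjusted 0.0264), with rho = 0.63 (p = 0.0327, adjusted 0.205), and r was 0.46 without the 2 cows farthest in HK1, REST cows 2 and 5. It was 0.95 within CONT, 0.84 within REST and 0.78 with group and slide means removed. The fibroblast level ranged from 2.45 to 2.82 in CONT and from 1.35 to 3.02 in REST, and its mean was lower in REST by a log2 difference of -0.53 (exact permutation p = 0.0541). Of the 6 fibroblast markers, COL1A1, COL1A2 and LUM had unadjusted p-values under 0.05, with differences of -0.72, -0.65 and -0.84, against 1.01% of the named genes in the lower direction. Their adjusted p-value was 1 (limma, Westfall-Young). With slide as a block the differences were -0.39 ± 0.28, -0.45 ± 0.28 and -0.83 ± 0.28 (SE, log2), and COL1A1 and COL1A2 lost their unadjusted calls. UGP2 ran against the mean of 7 myoepithelial and basal markers (r = -0.82, permutation p = 0.00191, adjusted 0.0264), with rho = -0.78 (p = 0.00417, adjusted 0.0626) and -0.76 without the 2 farthest cows. The relation of HK1 was lost without CONT cow 6 or REST cow 2 or 5 (adjusted permutation p = 0.0641 to 0.163), and that of UGP2 without CONT cow 6 or REST cow 2, 3 or 5 (0.0504 to 0.078) or with normexp background correction (0.0696). The part of these cell types in the levels of SLC2A3, HK1 and UGP2 was not tested.

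The other 4 relations joined the brightest SLC2A4 probe and the dim SLC35A2 probe to the skeletal muscle and erythroid lists. SLC35A2 had r = 0.93 with the muscle list (permutation p = 0.00001, the smallest that 100000 resamples can give, adjusted 0.0009) and 0.92 with the erythroid list (permutation p = 0.00005, adjusted 0.00225). SLC2A4 had r = 0.74 (permutation p = 0.00306, adjusted 0.0344) and 0.78 (permutation p = 0.00179, adjusted 0.0264). Spearman's rho was 0.94 and 0.92 for SLC35A2 and 0.71 and 0.84 for SLC2A4, with adjusted permutation p-values of 0.0018, 0.0027, 0.126 and 0.0212. Without the 2 farthest cows r was 0.92 and 0.85 for SLC35A2 and 0.52 and 0.66 for SLC2A4. The relations of SLC35A2 stayed past the threshold when any single cow was left out, whereas SLC2A4 lost that with muscle without CONT cow 2, 3, 4 or 6 or REST cow 1, 2, 3 or 5 (adjusted permutation p = 0.0577 to 0.215) and that with the erythroid list without CONT cow 4 or 6 or REST cow 2 or 5 (0.0504 to 0.162). With quantile normalization the erythroid relations of SLC35A2 (r = 0.73, adjusted permutation p = 0.0599) and SLC2A4 (r = 0.75, adjusted permutation p = 0.0551) were both lost. That of SLC2A4 was also lost with normexp (r = 0.58, adjusted permutation p = 0.214), and its relation with muscle with group and slide means removed (r = 0.65, adjusted permutation p = 0.0703). In these lists 5 of 8 and 3 of 6 genes exceeded background on every array. The median level of the 7052 probes not well above background on any array also moved with both genes, with r = 0.86 for SLC35A2 (permutation p = 0.00045, adjusted over 18 relations 0.00405) and 0.73 for SLC2A4 (permutation p = 0.00642, adjusted 0.0289). The matching rho was 0.90 and 0.81 (adjusted permutation p = 0.00342 and 0.0189), and r without the 2 farthest cows was 0.75 and 0.61. The part of the level of dim probes in the relations of SLC35A2 and SLC2A4 was not tested.

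The 75th percentile used for scaling moved with 2 of the genes. It was also subtracted from every level, so the 2 sides of these relations share a term and a negative r is partly built in. In log2 it had r = 0.86 with HK1 (permutation p = 0.00032, adjusted 0.00405) and r = -0.77 with B4GALT1 (permutation p = 0.00369, adjusted 0.0221), so that arrays with a higher percentile had higher HK1 and lower B4GALT1. The matching rho was 0.64 and -0.69 (adjusted permutation p = 0.135 and 0.0993), and r without the 2 farthest cows was 0.65 and -0.64. Of the 18 relations of the 9 genes with this percentile and the level of dim probes, 4 were past the threshold, with r of size 0.73 or more, and 6.56% of such relations over the 9000 named genes reached that size. The part of the percentile in the relation of HK1 and B4GALT1 to each other and to LALBA was not tested. LALBA itself was not set against the percentile, and its part in the other relations with LALBA was not tested either. With the median in place of the 75th percentile, r between HK1 and B4GALT1 was -0.66 (adjusted permutation p = 0.084). The number of relations with marker lists past the threshold was 2 without REST cow 2 or REST cow 5, 3 without CONT cow 6, 5 without CONT cow 4, 13 without REST cow 4 and 24 with group and slide means removed, in place of 8. The count of 24 also ignores that the means were fitted, so it can be too high and is not comparable with 8.

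**Figure D5:**
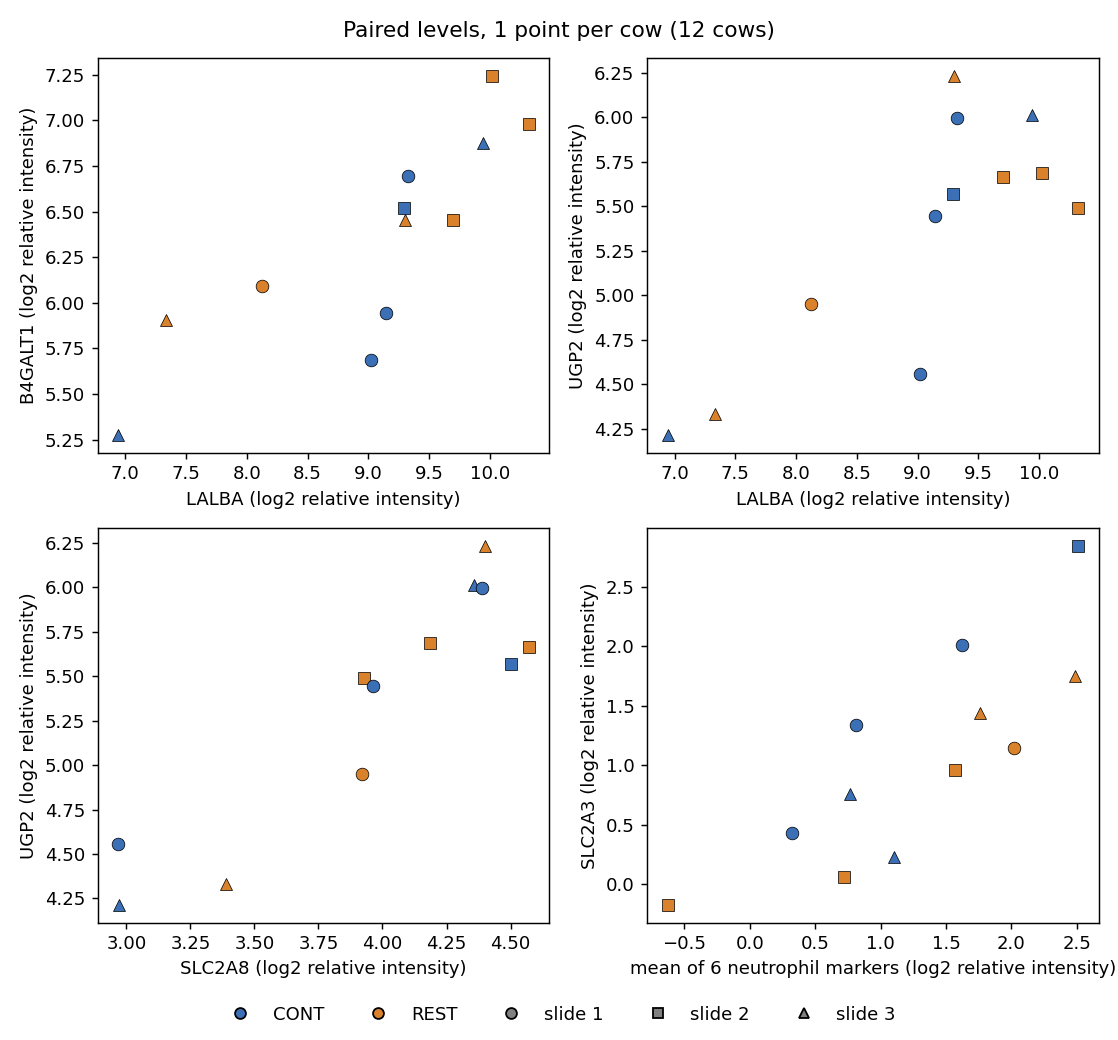
Levels in each of the 12 cows (log2 intensity minus the 75th percentile), with the diet as the color and the slide as the symbol, for B4GALT1 and UGP2 against LALBA, UGP2 against SLC2A8, and SLC2A3 against the mean of 6 neutrophil markers. Correlations are 0.84, 0.80, 0.90 and 0.82, and the ranges of CONT and REST cows overlap on every axis.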

How the data were processed

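The authors labeled RNA of 12 mammary biopsies (6 CONT and 6 REST) with Cy3, hybridized 1 single-color Agilent bovine array per cow and extracted spot intensities with Agilent Feature Extraction 11.0.1.1. The deposited values are spot intensities after the background correction of that software, without normalization between arrays, and the deposited matrix holds the same intensities. Here non-control spots were kept, outlier spots were set to missing, spots of a probe were averaged, and log2 intensities were shifted by the 75th percentile of the array, as in the study's methods. Member probes had no saturated spot. The number of cows limits the precision.

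REST and CONT were compared with limma 3.58.1 (R 4.3.3), two-sided, with Westfall-Young adjustment over 100 splits of the cows and Benjamini-Hochberg adjustment beside it. Fits covered all 43653 probes. Correlations over cows used 100000 resamples (Python 3.11.15, numpy 2.4.6), and figures matplotlib 3.10.9. Procedures were tested on simulated data. No positions are given because array annotation and RefSeq table belong to different assemblies.

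The members and lists were chosen with earlier results of these data known. Genes named are all member probes, LALBA, pathway genes with an unadjusted p-value under 0.05 and the 2 widest differences of each list among genes well above background on all 12 arrays, markers under 0.05, and pairs past the adjusted threshold. Alternatives were quantile, median and normexp (offset 50) processing, the deposited matrix, a filter on dim probes, slide as a block, kept outlier spots, a trend of variance with intensity, the mean over probes, and each cow left out. Correlations with LALBA, marker lists and array levels were added after the data were seen.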

Additional observations from a re-analysis of the deposited data

Results flagged for a closer look

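In 5 of 82 groups of 6 cows tested, over the 24 member probes and the 17 named pathway genes, 1 cow lay far from the other 5, with a gap to its neighbor above 0.625 of the range of its group, and chance gives such a cow in about 1 of 20 groups (4.1 of 82). Of the members, SLC2A4 probe 1 stood at -2.58 in CONT cow 6, beside 0.07 to 1.48 in the other CONT cows, a gap of 0.652 of the range. The same cow was apart for LALBA, at 6.94 beside 9.02 to 9.94 (0.691), and for SLC5A9, at -2.79 beside -1.64 to -1.15 (0.701). ADPGK was high in REST cow 5, at -0.49 beside -1.08 to -0.89 (0.674), and PGLS was high in CONT cow 4, at 1.35 beside 0.70 to 0.87 (0.742).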

How the results depend on the processing

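Under every alternative run, 0 probes were past the adjusted threshold in limma, 0 of 27 member probes had an unadjusted p-value under 0.05 and 0 were without overlap, and the median over the 9 genes stayed below 0 (-0.22 to -0.02). Over all probes 1143 had an unadjusted p-value under 0.05 in the reported setting. Of 679 recomputed differences of 41 probes or genes that moved at all, 27 turned in direction, all of them unadjusted and not past a threshold in the reported setting. With slide as a block UGP2 was -0.035, UGP2 probe 3 -0.0409, SLC2A4 probe 2 0.0504 and LALBA -0.15. Quantile normalization gave -0.0858 for LALBA and normexp -0.0535 for PGM1 probe 3. When each cow was left out in turn, the ranges that crossed 0 were -0.79 to 0.0353 for SLC2A4, -0.12 to 0.31 for UGP2, -0.086 to 0.38 for its probe 2, -0.15 to 0.31 for probe 3, -0.001244 to 0.44 for probe 4, -0.33 to 0.0932 for SLC2A3 probe 2, -0.61 to 0.00813 for probe 4, -0.21 to 0.55 for LALBA, -0.45 to 0.0408 for SLC2A6, -0.14 to 0.0285 for ADPGK and -0.37 to 0.15 for PYGL. The number of pathway genes with an unadjusted p-value under 0.05 went from 1 to 2 with quantile normalization, median scaling or the filter on dim probes, to 0 with the mean over probes, and was 1 to 2 with cows left out. The number of member pairs past the adjusted threshold went from 6 to 3 with quantile normalization or normexp and to 11 with group and slide means removed, and was 3 to 8 with cows left out. The count of 11 ignores that the means were fitted, so it can be too high and is not comparable with 6. The cause of the other changes was not tested. No paired analysis was possible because the GEO description of every cow gives the same replicate number, 1 of 6, and the labels tie no cow of CONT to one of REST.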

Other observations

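Among markers of other cell types, 6 endothelial genes all had a higher mean in REST (median 0.43), against 46.1% of all probes. The difference of the list mean moved from 0.46 to 0.15 without CONT cow 6, whose level was -1.47 beside 0.27 to 0.56 in the other CONT cows. VWF, the von Willebrand factor of endothelial cells, was higher by 0.79 ± 0.30 (SE, log2), with an unadjusted p-value of 0.0227 and an adjusted p-value of 1 (limma, Westfall-Young). CD3D, a subunit of the T cell receptor complex, was higher by 0.60 ± 0.26 (unadjusted p = 0.04 in limma), while 3 of the 7 T cell markers had a higher mean in REST. TNNT3, a troponin of fast skeletal muscle, was higher by 1.12 ± 0.41 (unadjusted p = 0.0168 in limma), although it was well above background on 4 of 6 CONT arrays and was at 0.41 with normexp background correction. Of the 8 skeletal muscle markers 3 had a higher mean in REST, with a list median of -0.05. With slide as a block the differences of VWF, CD3D and TNNT3 were 0.90 ± 0.32, 0.50 ± 0.30 and 1.07 ± 0.47 (SE, log2). That of CD3D then lost its unadjusted call. None of these genes passed an adjusted threshold, and 2.64% of all named genes had an unadjusted p-value under 0.05 in limma in either direction.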
